A study of Mus musculus with 6 samples.

Results

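The genes described here build cholesterol and fatty acids, sense sterols and carry sterols out of the cell, and they were followed over 3 mouse cell populations on the way to T cells. They are 37 named genes, taken from general knowledge of the pathways but chosen with earlier results of these data known. The counts below therefore describe this set and are not an independent test of it. Of the 37, 35 were measured among 19938 genes on the array, and Acat2 and Nr1h2 were not analysed here. Each gene is represented by the probe set with the highest mean signal among those linked to that gene alone. The study measured RNA with 6 Affymetrix gene arrays, 2 per population. HSC samples held bone marrow cells expanded in culture with IL6 and SCF, growth factors for blood progenitors. The ProT samples were such cells grown with IL7 and with DLL4, which activates Notch1 and so directs progenitors to the T lineage. The DP samples were thymocytes with both CD4 and CD8 that arose after ProT cells had been injected into a Rag2-/- mouse, a host whose own lymphocytes cannot rearrange their receptor genes. Cells of all 3 populations carried the NUP98-HOXB4 fusion protein, introduced by transduction, which keeps progenitors growing, so no group is free of it. HSC and ProT cells came from culture and DP cells from an animal, so that maturation and the change of surroundings cannot be told apart in any comparison with DP. Whether the replicates were independent cultures or animals is not stated in the labels, so p-values rest on a spread that may be technical only.

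Cholesterol is made from acetyl-CoA through mevalonate, farnesyl diphosphate and squalene, and fatty acids from acetyl-CoA through malonyl-CoA. Most enzymes of both routes are switched on by the SREBP transcription factors, which SCAP escorts out of the endoplasmic reticulum when sterols are low and which INSIG proteins hold back when sterols are high. The LXR receptors respond to oxysterols, formed when sterols are plentiful, and switch on the export pumps ABCA1 and ABCG1 and the ubiquitin ligase MYLIP, which removes lipoprotein receptors. In lymphocytes, synthesis is high during growth and proliferation, and LXR with ABCG1 is known to restrain that proliferation.

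Signals are the log2 values deposited for each array, so a difference of 1 is a 2-fold change, and the array medians over genes lay between 7.11 and 7.24. Over all probe sets the medians were 6.90 and 6.91 on the DP arrays, against 6.73 to 6.77 on the others. The cause of this offset was not tested. The median of all gene values was 7.17, and signals at or below it were not shown to lie above background. Replicate arrays correlated at 0.993 (HSC), 0.995 (ProT) and 0.998 (DP) over genes, and arrays of different populations at 0.915 to 0.960. Markers of the labelled populations were present, together with those of other cells. All 7 thymocyte markers rose in DP against ProT, where 14.5% of all genes did. Their means in DP were 11.21 for Rag2 to 13.41 for Rag1. All 7 early T lineage markers rose in ProT against HSC, but so did 5 of 6 mast cell markers, where 7.85% of all genes did. The 6 mast cell markers averaged 10.67 and 10.81 on the ProT arrays, against 6.23 and 6.08 on the HSC arrays. Among them Mcpt1, a mast cell protease, averaged 12.52 in ProT and 4.92 in HSC, so the ProT arrays carried mast cell transcripts beside those of the T lineage. All 6 stem and progenitor markers were above the median of all gene values in HSC, as were 5 of 6 in ProT and 5 of 6 in DP. Of these Kit, also on the early T lineage list, averaged 11.25 in HSC and 11.97 in ProT. All 8 measured granulocyte and monocyte markers were above that median in HSC too, and their list averaged 12.47 and 12.72 on the HSC arrays. The granulocyte and monocyte list averaged 7.57 and 7.53 on the DP arrays, against 8.77 and 7.61 on the ProT arrays, and 4 of the 8 reached that median in DP. By limma 1 of the 8 rose in DP against ProT and 2 fell, where 14.5% and 18.1% of all genes did. The 1 that rose was Lyz2, with 10.55 and 10.48 in DP, against 9.27 and 8.27 in ProT. Ngp had 9.75 and 9.68 in DP, against 8.85 and 6.59 in ProT, without passing.

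Sterol and fatty acid synthesis genes were high in HSC and ProT and much lower in DP, while the sterol export side rose over the same path. In DP against ProT, 28 of the 35 measured members fell and 5 rose, where 18.1% and 14.5% of all genes did (limma, adjusted by Benjamini-Hochberg across all genes, threshold 0.05). Of those that fell, 22 changed at least 2-fold, as did 7.12% of all genes. The median log2 change of the members was -1.58, against 0.02 for all genes. The members that rose were Insig2, Nr1h3, Abca1, Abcg1 and Mylip, and Scap and Acss2 did not pass the test. Since these are bulk samples, fewer cells with a transcript and less of it per cell cannot be told apart. In DP against HSC, 27 members fell and 6 rose, where 18.8% and 16.0% of all genes did, with a median of -1.54. That comparison shares the DP arrays with the other and is not a separate test of the fall. Markers of other cells moved with both. In DP against ProT all 6 mast cell markers fell at least 2-fold, with a list average of 5.37 and 5.30 on the DP arrays, against 10.67 and 10.81 on the ProT arrays, and 5 of 6 stem and progenitor markers fell, with averages of 7.94 and 7.91, against 10.29 and 10.20. In DP against HSC 2 of the 6 mast cell markers fell, and all 6 stem and progenitor and all 8 granulocyte and monocyte markers did. The part of these cells in the fall of the synthesis genes was not tested.

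In ProT against HSC the members moved little, with a median log2 change of 0.21 against -0.01 for all genes. Of the 35, 11 rose, where 7.85% of all genes did, and 3 of them changed at least 2-fold (Acss2, Abca1 and Abcg1), as did 3.47% of all genes. None fell by limma, where 6.90% of all genes did, and at an unadjusted p below 0.05, 1 member was lower. The number of calls among all genes also changed with the array left out, so the changes in count that follow are not particular to the members. The count that rose was 7 without HSC replicate 2, 6 without ProT replicate 2 and 5 without either DP replicate, which enters this comparison through the estimate of the spread alone. Without HSC replicate 1, 2 members were lower, Idi1 (-0.70, adjusted p = 0.0172) and Elovl6 (-0.79, adjusted p = 0.0481). In DP against ProT the count that rose was 3 without ProT replicate 1 or without either DP replicate, while the count that fell lay between 25 and 29 whichever array was left out. Centring each array on its median gave a median of all genes in DP against ProT of 0.13 (0.02 as deposited) and made 60.2% of all calls higher ones (44.6% as deposited). No member changed direction in DP against ProT under that or any other scaling.

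**Figure D1:**
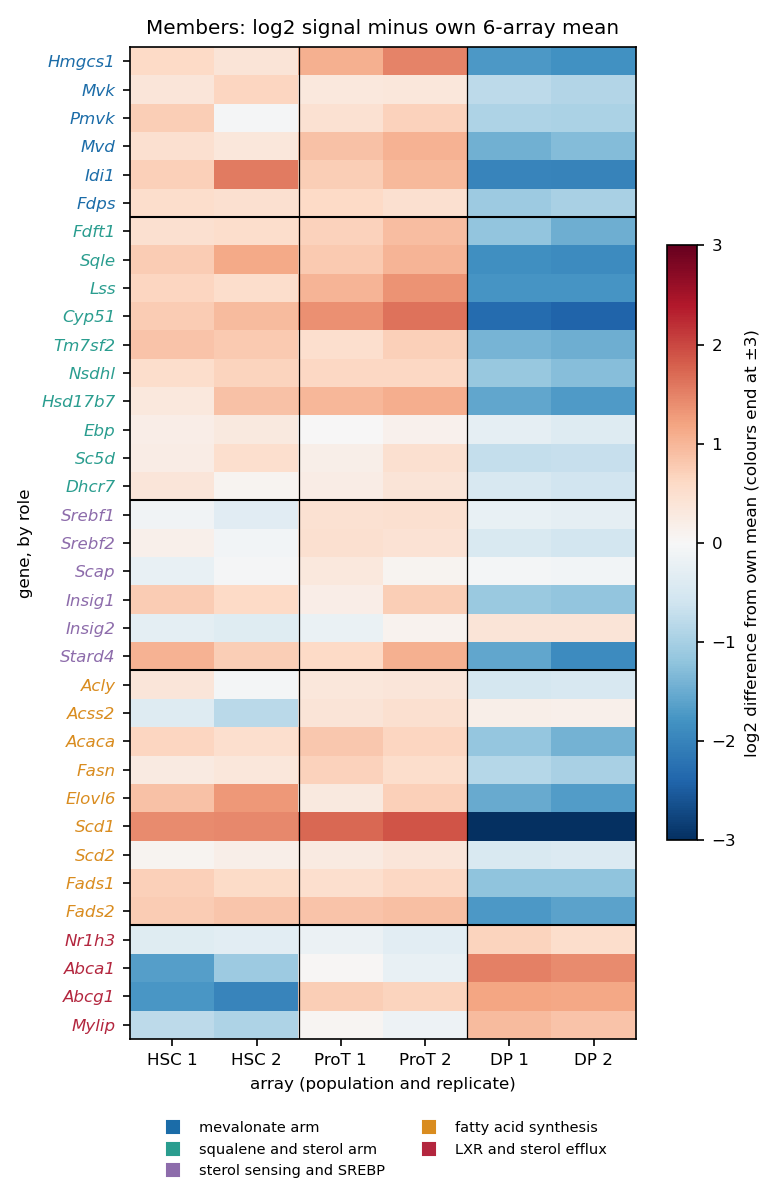
Log2 signal of the 35 measured members on each of the 6 arrays (columns), as the difference from the member's own mean over the arrays; gene names are coloured by role and colours end at 3 in either direction. Most synthesis genes are blue on both DP arrays and red on the HSC and ProT arrays. The 4 LXR and sterol efflux genes are highest on the DP arrays, and Abcg1 is above its own mean on the ProT arrays as well.

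To let the reader see the regulatory sequence of members that moved together, the 250 bases before the annotated gene start are printed for 4 genes that fell in DP and for Abca1, which rose. They come from RefSeq on build GRCm38.p6 and lie at chr13:119690101-119690350 (plus strand) for Hmgcs1, chr5:4104698-4104947 (minus strand) for Cyp51, chr10:76531355-76531604 (plus strand) for Lss, chr15:82147019-82147268 (plus strand) for Srebf2 and chr4:53159896-53160145 (minus strand) for Abca1. Each is written 5′ to 3′ on the gene's own strand, and capitals mark matches to CCAAT, the box bound by NF-Y, a frequent partner of SREBP, and to TCACNCCAC, the core of the sterol regulatory element, on either strand (ATTGG is CCAAT read from the other strand).
Hmgcs1: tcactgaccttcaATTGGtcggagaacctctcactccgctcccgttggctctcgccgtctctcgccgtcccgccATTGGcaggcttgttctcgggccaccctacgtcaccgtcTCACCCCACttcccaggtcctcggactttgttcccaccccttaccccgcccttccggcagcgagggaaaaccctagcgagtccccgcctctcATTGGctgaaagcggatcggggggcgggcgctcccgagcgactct
Cyp51: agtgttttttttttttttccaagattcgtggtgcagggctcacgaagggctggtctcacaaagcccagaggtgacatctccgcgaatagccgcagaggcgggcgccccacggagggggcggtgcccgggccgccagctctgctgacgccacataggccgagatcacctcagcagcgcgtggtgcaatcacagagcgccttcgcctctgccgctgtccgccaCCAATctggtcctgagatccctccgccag
Lss: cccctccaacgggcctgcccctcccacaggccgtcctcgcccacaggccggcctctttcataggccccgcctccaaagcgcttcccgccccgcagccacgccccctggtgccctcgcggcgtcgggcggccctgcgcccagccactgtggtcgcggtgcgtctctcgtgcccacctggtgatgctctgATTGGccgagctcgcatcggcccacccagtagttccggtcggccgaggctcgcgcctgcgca
Srebf2: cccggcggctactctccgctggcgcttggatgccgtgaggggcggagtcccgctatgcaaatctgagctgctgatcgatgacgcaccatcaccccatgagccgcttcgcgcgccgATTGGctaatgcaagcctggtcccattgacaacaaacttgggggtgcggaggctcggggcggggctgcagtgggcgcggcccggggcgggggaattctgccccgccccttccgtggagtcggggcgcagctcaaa
Abca1: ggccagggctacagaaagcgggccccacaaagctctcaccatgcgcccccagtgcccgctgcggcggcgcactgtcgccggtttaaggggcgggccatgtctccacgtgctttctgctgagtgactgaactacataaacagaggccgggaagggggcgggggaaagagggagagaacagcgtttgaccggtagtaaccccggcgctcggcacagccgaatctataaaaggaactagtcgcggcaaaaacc
Hmgcs1 held 3 CCAAT matches and 1 sterol regulatory element core, which starts 137 bases before the gene start. Cyp51, Lss and Srebf2 each held 1 CCAAT match, and Abca1 held no match to either motif.

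The RefSeq promoter table had an entry for 27 of the 35 measured members, 6 of them with several starts, which were counted together. The 8 without an entry were Fdps, Fdft1, Sqle, Stard4, Scd1, Scd2, Fads1 and Abcg1. Among the members that fell in DP against ProT, 17 of 21 with an entry held CCAAT in this window, a share of 81.0%, where 37.49% of all 27025 genes with an entry did. Those without it were Acaca, Acly, Elovl6 and Fads2, all in the fatty acid group. Among the members that rose, 2 of 4 held it, Insig2 and Mylip. The core TCACNCCAC occurred in 1 of the 21, Hmgcs1, and in 1.22% of all genes, and the E-box CACGTG in 4 of the 21 and in 6.86% of all genes. Of the 4 that rose, none held the core and 1, Abca1, held the E-box. Acss2 and Scap, which did not pass, held CCAAT and the E-box, respectively. These are counts of exact letters, so sites that differ from them by a base were not counted, and they do not show binding or its absence.

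All 6 measured genes of the mevalonate arm fell in DP against ProT, where 18.1% of all genes did. Their log2 changes were -1.16 to -3.05 with a median of -1.96, each at least 2-fold, where 7.12% of all genes fell that far. Hmgcs1, which makes HMG-CoA, had signals of 11.52 and 11.29 on the HSC arrays, 11.99 and 12.40 on the ProT arrays and 9.18 and 9.10 on the DP arrays. It rose in ProT against HSC (0.79 ± 0.16 SE, adjusted p = 0.0227) and fell 8.30-fold in DP against ProT (-3.05 ± 0.16, adjusted p = 8.1e-05), placing 168th of 19938 genes by size of fall. The groups did not overlap in either step. Idi1, which isomerises the isoprene unit, had 11.41 and 12.25 in HSC, 11.43 and 11.67 in ProT and 8.72 and 8.69 in DP. Its HSC arrays were 0.85 apart, the widest gap between replicates of any member, and the ProT values lay between them, while both DP values were far lower, with a fall of 7.18-fold against ProT (-2.84 ± 0.27, adjusted p = 0.000717).

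The other mevalonate genes followed with smaller falls. Mvd, which forms isopentenyl diphosphate, had 9.74 and 9.61 in HSC, 10.14 and 10.30 in ProT and 7.81 and 7.96 in DP. It rose in ProT (0.54 ± 0.10, adjusted p = 0.0178) and fell 5.04-fold in DP against ProT. Fdps, which joins isoprene units into farnesyl diphosphate, had 12.05 and 12.01 in HSC, 12.12 and 12.02 in ProT and 10.44 and 10.55 in DP. HSC and ProT overlapped, and DP was 2.99-fold below ProT (-1.58 ± 0.08, adjusted p = 8.66e-05). The kinase gene Mvk had 9.62 and 9.89 in HSC, 9.57 and 9.58 in ProT and 8.46 and 8.38 in DP. Its partner kinase Pmvk had 8.97 and 8.21 in HSC, 8.70 and 8.92 in ProT and 7.32 and 7.29 in DP, close to the median of all gene values. Both DP values were below all others for each kinase, with changes of -1.16 ± 0.11 and -1.50 ± 0.24 in DP against ProT. The adjusted p of Pmvk, 0.00541 in that comparison, became 0.0517 and 0.0557 without DP replicate 1 and 2, and in DP against HSC, where it was 0.00866, 0.0665 and 0.0726. In ProT against HSC, Hmgcs1 missed the threshold without HSC replicate 2 (adjusted p = 0.0819) and without either DP replicate (0.0801). Mvd did so without HSC replicate 2 (0.0624), ProT replicate 2 (0.0702) or either DP replicate (0.051), and Pmvk passed without HSC replicate 1 (0.60, adjusted p = 0.0233).

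All 10 genes from squalene to cholesterol fell in DP against ProT, with a median log2 change of -2.08, and 8 of them at least 2-fold. Among all genes 18.1% fell and 7.12% fell at least 2-fold. Cyp51, the demethylase of lanosterol, had 10.61 and 10.78 in HSC, 11.21 and 11.46 in ProT and 7.53 and 7.44 in DP. It rose in ProT against HSC (0.64 ± 0.12, adjusted p = 0.0164) and fell 14.4-fold in DP against ProT (-3.85 ± 0.12, adjusted p = 1.37e-05), the 65th largest fall of all genes. Its DP signals were near the median of all gene values. Lss, which closes squalene epoxide into lanosterol, had 10.67 and 10.55 in HSC, 11.04 and 11.38 in ProT and 8.26 and 8.25 in DP, a rise of 0.60 ± 0.12 (adjusted p = 0.0279) and then a 7.74-fold fall. Sqle, the epoxidase before it and a rate-limiting step, had 11.27 and 11.65 in HSC, 11.30 and 11.53 in ProT and 8.68 and 8.63 in DP. HSC and ProT overlapped for Sqle, and DP was 6.77-fold below ProT (-2.76 ± 0.15, adjusted p = 9.58e-05).

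Fdft1, the squalene synthase that commits isoprenoids to sterols, had 12.02 and 12.07 in HSC, 12.23 and 12.48 in ProT and 10.37 and 10.09 in DP, a 4.35-fold fall in DP against ProT. Hsd17b7, a reductase acting on sterol ketones, had 9.84 and 10.41 in HSC, 10.53 and 10.62 in ProT and 7.96 and 7.82 in DP, a 6.43-fold fall. Both DP values lay below all 4 others for each gene. Tm7sf2, a sterol reductase, had 10.26 and 10.20 in HSC, 9.92 and 10.13 in ProT and 8.03 and 7.95 in DP, a 4.09-fold fall. Nsdhl, which removes methyl groups together with Hsd17b7, had 11.68 and 11.81 in HSC, 11.76 and 11.77 in ProT and 10.01 and 9.87 in DP, a 3.55-fold fall. HSC and ProT lay close together for both, and neither passed the test between them.

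The smallest falls of this arm were those of its last enzymes. Sc5d, a sterol desaturase, had 10.86 and 11.13 in HSC, 10.80 and 11.12 in ProT and 9.92 and 9.95 in DP, a 2.03-fold fall against ProT (-1.02 ± 0.14, adjusted p = 0.0029). Dhcr7, which makes cholesterol from its precursor, fell to a mean of 10.22 ± 0.07 in DP, against 11.05 ± 0.11 in ProT (SD, n = 2 each). Ebp, a sterol isomerase, averaged 9.82 ± 0.07 in DP and 10.23 ± 0.08 in ProT. Its fall of -0.41 ± 0.09 (adjusted p = 0.0151) missed the threshold without ProT replicate 2 (adjusted p = 0.0712), without DP replicate 1 or 2 (0.0581 and 0.107) and after median centring (-0.29, adjusted p = 0.053). Dhcr7 in DP against HSC (-0.75 ± 0.12, adjusted p = 0.00472) did so without DP replicate 2 (0.0506). In ProT against HSC, Lss missed it without HSC replicate 2 (0.0977), ProT replicate 2 (0.0587) or either DP replicate (0.0914). Cyp51 did so without ProT replicate 2 (0.0522) or either DP replicate (0.0598), and Hsd17b7 passed without HSC replicate 2 (0.73, adjusted p = 0.0119).

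**Figure D2:**
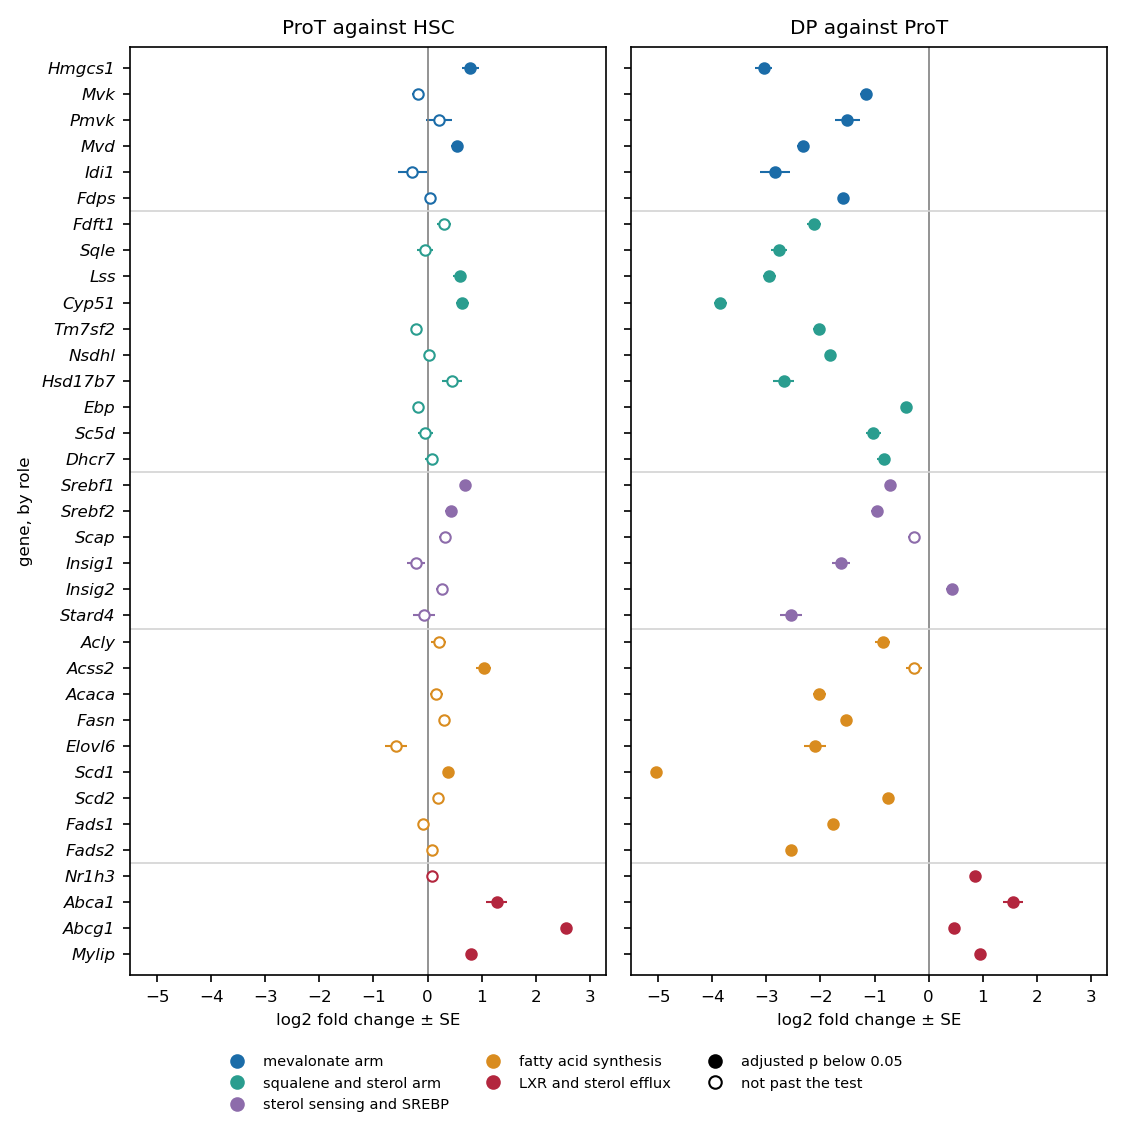
Log2 fold changes with standard errors from limma for the 35 measured members, in ProT against HSC (left) and DP against ProT (right), grouped by role; filled points passed the test. In DP against ProT the synthesis genes lie left of 0, down to -5.04 for Scd1, and the 4 LXR and sterol efflux genes lie right of it.

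The genes that sense sterols did not move as a block, with 4 of 6 lower and 1 higher in DP against ProT. Among all genes 18.1% were lower and 14.5% higher. The transcription factor genes Srebf1 and Srebf2 changed by -0.72 and -0.96, where the medians of the mevalonate and sterol arms were -1.96 and -2.08. Srebf2, the main activator of cholesterol synthesis, averaged 11.50 ± 0.17 in HSC, 11.93 ± 0.04 in ProT and 10.97 ± 0.07 in DP. Srebf1, the main activator of fatty acid synthesis, averaged 10.05 ± 0.16 in HSC, 10.74 ± 0.02 in ProT and 10.02 ± 0.04 in DP (SD, n = 2 each). Both were highest in ProT: Srebf1 rose there by 0.69 ± 0.09 against HSC (adjusted p = 0.00617) and changed by -0.72 ± 0.09 in DP against ProT (adjusted p = 0.00254). Its change in DP against HSC did not pass (-0.03 ± 0.09, adjusted p = 0.871, with the opposite sign under all 3 other scalings). Srebf2 changed by 0.43 ± 0.10 in ProT against HSC (adjusted p = 0.0435) and by -0.96 ± 0.10 in DP against ProT (adjusted p = 0.00114). The call for its rise was lost without any single array (adjusted p = 0.111 without HSC replicate 2, 0.175 and 0.102 without ProT replicate 1 and 2, 0.109 without either DP replicate) except HSC replicate 1. It was also lost after quantile normalization (0.0546) and median centring (0.0675), and that of its fall in DP against HSC (-0.53 ± 0.10, adjusted p = 0.00951) without DP replicate 2 (0.0793).

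The INSIG pair went opposite ways. Insig1, itself an SREBP target, had 11.88 and 11.72 in HSC, 11.33 and 11.85 in ProT and 10.00 and 9.94 in DP, a 3.08-fold fall in DP against ProT (-1.62 ± 0.17, adjusted p = 0.00114). Insig2, which in the liver depends on other signals than SREBP, averaged 9.35 ± 0.04 in HSC, 9.62 ± 0.20 in ProT and 10.05 ± 0.00 in DP. Its rise of 0.69 ± 0.11 in DP against HSC had an adjusted p = 0.00437. In DP against ProT it was 0.43 ± 0.11 (adjusted p = 0.0304), and missed the threshold without ProT replicate 1 (0.096) and without DP replicate 1 or 2 (0.14 and 0.149). Scap, the escort of SREBP, passed in no comparison and averaged 10.51 ± 0.13 in HSC, 10.83 ± 0.16 in ProT and 10.56 ± 0.02 in DP. Stard4, which moves cholesterol between membranes and is another SREBP target, had 10.31 and 10.01 in HSC, 9.87 and 10.32 in ProT and 7.70 and 7.38 in DP, a 5.88-fold fall in DP against ProT (-2.55 ± 0.20, adjusted p = 0.000358).

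**Figure D3:**
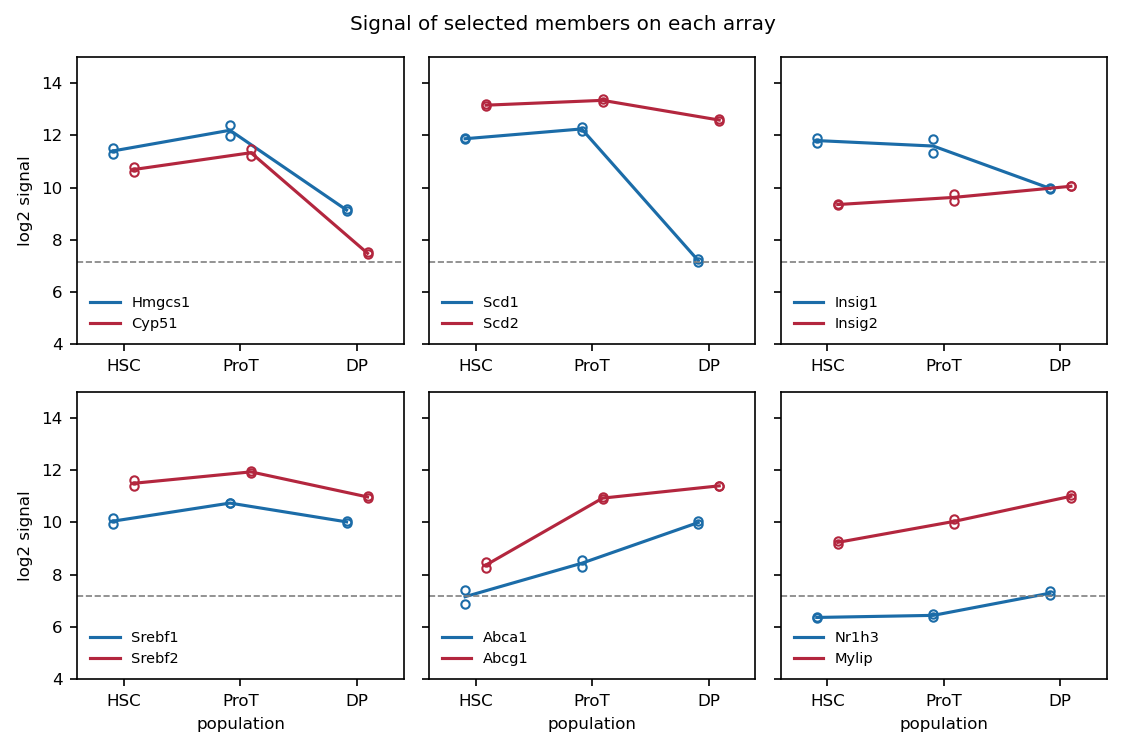
Log2 signal of 12 members on each array (open circles) in HSC, ProT and DP, with lines joining the mean of the 2 arrays of each population; the dashed line is the median of all gene values, 7.17. Scd1 drops to the dashed line in DP while Scd2 stays above 12, Insig1 falls where Insig2 rises, and Abca1, Abcg1 and Mylip climb from HSC to DP.

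Of the 9 fatty acid synthesis genes 8 fell in DP against ProT, with a median of -1.76, and 6 of them at least 2-fold. Among all genes 18.1% fell and 7.12% fell at least 2-fold. Scd1, a desaturase that makes oleic acid, had 11.86 and 11.88 in HSC, 12.17 and 12.32 in ProT and 7.14 and 7.27 in DP. Its fall, at least 32.6-fold with array values below the median of all gene values raised to it (measured difference -5.04 ± 0.09, adjusted p = 4.05e-06), was the largest among the members and the 16th largest of all genes by the measured difference, and its DP signals were at the median of all gene values, 7.17. Scd2, the desaturase of the same family, averaged 13.15 ± 0.07 in HSC, 13.34 ± 0.07 in ProT and 12.59 ± 0.04 in DP (SD, n = 2 each). It changed by -0.75 ± 0.08 in DP against ProT (adjusted p = 0.00113). The difference between the changes of Scd1 and Scd2 was not tested. The small rise of Scd1 in ProT against HSC (0.37 ± 0.09, adjusted p = 0.0423) was lost without any one array (adjusted p between 0.066 and 0.147), after median centring (0.0827) or cyclic loess (0.0609), with the filter on dim genes (0.0525) and with a trended robust prior (0.073).

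The enzymes that build the chain also fell. Fasn, the fatty acid synthase, had 11.77 and 11.84 in HSC, 12.19 and 12.02 in ProT and 10.64 and 10.52 in DP, a 2.89-fold fall in DP against ProT (-1.53 ± 0.09, adjusted p = 0.000155). Acaca, the carboxylase that supplies it with malonyl-CoA, had 10.58 and 10.44 in HSC, 10.76 and 10.58 in ProT and 8.78 and 8.53 in DP, a 4.05-fold fall. For both genes the DP arrays lay below the 4 others. Elovl6, which lengthens palmitate, had 11.12 and 11.55 in HSC, 10.54 and 10.97 in ProT and 8.74 and 8.57 in DP, a 4.29-fold fall. Both Elovl6 values in ProT were below both in HSC, but the change of -0.58 ± 0.20 did not pass (adjusted p = 0.123). The desaturase genes of polyunsaturated fatty acids fell as well. Fads1 had 12.05 and 11.90 in HSC, 11.82 and 11.94 in ProT and 10.13 and 10.12 in DP, a 3.38-fold fall, and Fads2 had 12.52 and 12.59 in HSC, 12.62 and 12.66 in ProT and 10.04 and 10.17 in DP, a 5.80-fold fall. Neither differed between ProT and HSC by the test.

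A pair of enzymes supplies acetyl-CoA. Acly, which makes it from citrate, averaged 11.54 ± 0.30 in HSC, 11.75 ± 0.02 in ProT and 10.90 ± 0.04 in DP. It changed by -0.85 ± 0.14 in DP against ProT (adjusted p = 0.00602) and by -0.64 ± 0.14 in DP against HSC (adjusted p = 0.0157). Both calls were lost without DP replicate 1 (0.0583 and 0.103) or 2 (0.0525 and 0.0898), and its rise in ProT passed without HSC replicate 1 (0.42, adjusted p = 0.0265). Acss2, which makes acetyl-CoA from acetate, had 9.91 and 9.49 in HSC, 10.70 and 10.79 in ProT and 10.48 and 10.47 in DP. Unlike the other synthesis genes it was higher in DP than in HSC. It rose 2.06-fold in ProT against HSC (1.04 ± 0.14, adjusted p = 0.00624) and was 1.71-fold higher in DP against HSC (0.78 ± 0.14, adjusted p = 0.00807). Its change of -0.27 ± 0.14 in DP against ProT did not pass (adjusted p = 0.228), though it did without either HSC replicate (0.0396), and the rise in DP against HSC was lost without either DP replicate (0.0646).

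Cell cycle genes, which in lymphocytes move with growth, were high in every population. Their list averaged 11.27 and 11.22 on the DP arrays, against 11.40 and 11.66 on the ProT arrays. Of its 11 measured members 5 fell in DP against ProT, where 18.1% of all genes did. The median log2 change of this list was -0.21, against -1.58 for the lipid genes. Those that fell were Cdk1, Mcm2, Mcm3, Mcm5 and Mcm6, by -0.58 (Mcm5) to -1.37 (Mcm3), and Mki67, the proliferation marker, had 0.87 without passing. Whether this bears on the fall of the synthesis genes was not tested.

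All 4 measured genes of LXR signalling and sterol efflux rose in DP against HSC and in DP against ProT, where 16.0% and 14.5% of all genes did. Their median log2 changes were 2.30 and 0.90. With array values below the median of all gene values raised to it, these medians were 2.23 and 0.71. Abcg1, which exports sterols, had 8.49 and 8.25 in HSC, 10.96 and 10.90 in ProT and 11.41 and 11.39 in DP. Most of its rise was in the culture step, 5.91-fold in ProT against HSC (2.56 ± 0.10, adjusted p = 4.6e-05), with 0.47 ± 0.10 more in DP against ProT (adjusted p = 0.0157). The second step missed the threshold without any single ProT or DP array (adjusted p between 0.0513 and 0.0981), although the values did not overlap. Abca1, the pump that loads lipoprotein with cholesterol, had 6.88 and 7.43 in HSC, 8.56 and 8.31 in ProT and 10.04 and 9.95 in DP. It rose in both steps, by at least 2.19-fold in ProT against HSC (measured difference 1.28 ± 0.19, adjusted p = 0.00838) and 2.95-fold in DP against ProT (1.56 ± 0.19, adjusted p = 0.00187). Its HSC mean of 7.16 was at the median of all gene values. Mylip, the ligase that marks lipoprotein receptors for breakdown, had 9.30 and 9.17 in HSC, 10.14 and 9.94 in ProT and 11.05 and 10.95 in DP. It too rose in both steps, by 0.81 ± 0.10 (adjusted p = 0.00451) and 0.96 ± 0.10 (adjusted p = 0.00115).

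Nr1h3, which encodes LXR alpha, had 6.34 and 6.38 in HSC, 6.51 and 6.37 in ProT and 7.36 and 7.22 in DP. Its HSC and ProT signals were below the median of all gene values and overlapped. Its rise in DP against ProT (measured difference 0.85 ± 0.09, adjusted p = 0.00109) brought it just above that median. With array values below that median raised to it, the rise was 1.09-fold. Since the DP signals of Nr1h3 were near that median too, they were not shown to lie above background. Genes of macrophages, cells that use LXR and both pumps, moved as well. Of 9 macrophage markers, 5 rose in DP against ProT and 1 fell, where 14.5% and 18.1% of all genes did. The list averaged 7.16 and 7.10 on the DP arrays, against 6.59 and 6.50 on the ProT arrays. The complement genes C1qb and C1qc averaged 9.47 and 8.22 in DP, against 6.34 and 5.90 in ProT, whereas Adgre1 averaged 7.11 in DP, against 11.10 in ProT. Marco, Cd163 and Timd4 stayed below the median of all gene values in every population. The B cell list rose in 5 of 5 cases and the thymic epithelium and stroma list in 6 of 8, and their averages on the DP arrays were 7.27 to 7.73, against 6.18 to 7.06 on the ProT arrays. Of these markers 1 of 5 (Cd79b, 10.89) and 4 of 8 reached the median of all gene values in DP, so most of these rises lay where signals were not shown to be above background. In ProT against HSC the macrophage list had 1 of 9 higher and 1 lower, where 7.85% and 6.90% of all genes were. The part of such cells in the rise of these genes was not tested. No adipocyte marker reached the median of all gene values in any population.

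**Figure D4:**
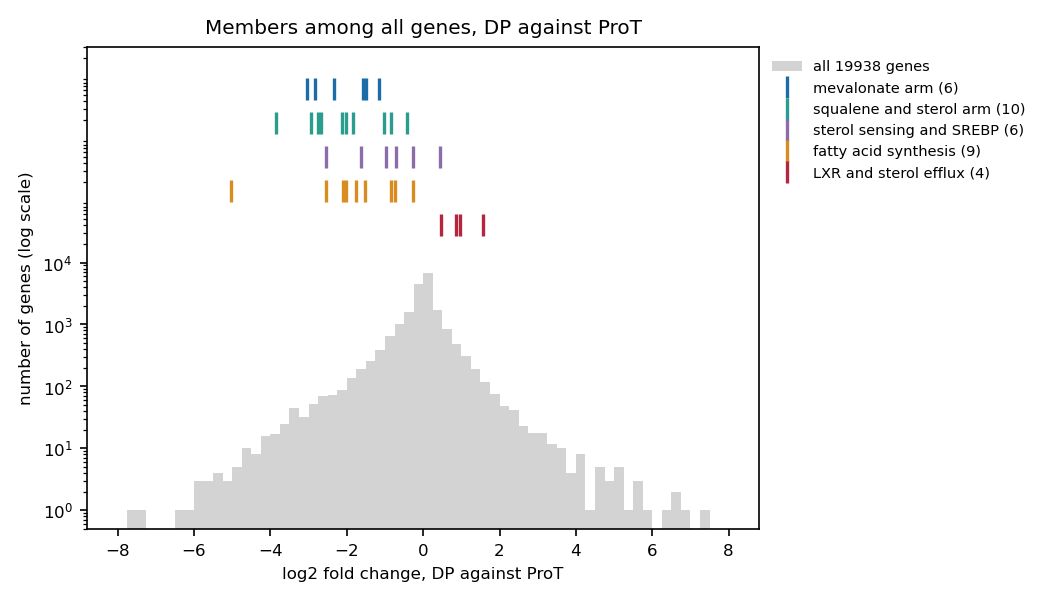
Distribution of log2 fold changes of all 19938 genes in DP against ProT (grey, number of genes on a log scale), with a tick for each measured member above it, by role. Ticks of the synthesis groups lie between -5.04 and -0.27, and the 4 LXR and sterol efflux ticks between 0.47 and 1.56.

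Further genes of the same pathways, from lists that do not overlap the members, gave a mixed picture around the enzymes. Of 6 other sterol and isoprenoid synthesis genes, 3 fell and 2 rose in DP against ProT, where 18.1% and 14.5% of all genes did. Msmo1, the sterol methyl oxidase between Cyp51 and Nsdhl, had 11.89 and 11.59 in HSC, 11.84 and 12.21 in ProT and 8.93 and 8.72 in DP (-3.19 ± 0.17, adjusted p = 8.83e-05). Erg28, a scaffold of the sterol enzymes, changed by -1.08 ± 0.09 and Dhdds, which makes dolichol, by -0.83 ± 0.07. The genes that use isoprenoids for protein lipidation did not follow: Pggt1b rose by 0.71 ± 0.17, as did Ggps1, which makes the lipid it attaches, by 0.52 ± 0.13, and Fntb did not pass (-0.20 ± 0.09). Both rises missed the threshold without DP replicate 1 (adjusted p = 0.147 for Pggt1b and 0.146 for Ggps1) or 2 (0.109 and 0.146), and that of Ggps1 also without ProT replicate 1 (0.127). Of these 6 genes limma called none in ProT against HSC in either direction, where 7.85% of all genes rose and 6.90% fell. At an unadjusted p below 0.05, 1 of the 6 was lower.

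Of 8 genes for sterol uptake, storage and SREBP processing, 3 rose and 1 fell in DP against ProT, where 14.5% and 18.1% of all genes did. Lipa, the lysosomal lipase that frees cholesterol from esters, had 12.46 and 12.46 in DP, against 10.02 and 10.08 in ProT (2.41 ± 0.08, adjusted p = 1.89e-05). Npc1, which exports cholesterol from lysosomes, rose by 0.47 ± 0.09 and Mbtps1, a protease that cleaves SREBP, by 0.60 ± 0.08, while Npc2 and Osbp did not pass (-0.09 ± 0.07 and -0.11 ± 0.10). The rise of Npc1 missed the threshold without DP replicate 1 (adjusted p = 0.0724) or 2 (0.0618). Scarb1, a receptor for cholesterol esters of HDL, had 8.46 and 8.32 in DP, against 10.69 and 10.69 in ProT (-2.30 ± 0.08, adjusted p = 2.28e-05). In ProT against HSC 3 genes of this list fell, Vldlr (-2.48 ± 0.35), Scarb1 (-1.03 ± 0.08) and Lipa (-0.93 ± 0.08), where 6.90% of all genes did. In the same comparison 1 rose, Gramd1a (0.94 ± 0.10), a sterol transfer protein, where 7.85% of all genes did. Vldlr averaged 6.14 in ProT, below the median of all gene values, so its fall was at least 2.74-fold.

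Of 18 other fatty acid and glycerolipid genes, 14 fell in DP against ProT, with a median of -0.64; the count was 9 without ProT replicate 2 and 7 without either DP replicate. The largest falls were those of Agpat2, an acyltransferase of phospholipid and triglyceride synthesis (-2.35 ± 0.11), Slc25a1, which brings citrate out of mitochondria (-2.32 ± 0.11), and Mecr, of mitochondrial fatty acid synthesis (-1.32 ± 0.12). Dgat2 and Acsl4 did not pass (0.14 ± 0.45 and -0.26 ± 0.22). Of all genes, 18.1% fell in DP against ProT, and fewer of them did so without ProT replicate 2 or either DP replicate as well. Dgat2, which makes triglycerides, had already fallen in ProT, with 6.53 and 6.61 in ProT, against 9.30 and 10.80 in HSC (measured difference -3.48 ± 0.45, adjusted p = 0.00468). The ProT signals of Dgat2 were below the median of all gene values, so this fall was at least 7.4-fold. In ProT against HSC 4 genes fell, among them Dgat1 (-1.16 ± 0.10) and Elovl7 (-1.13 ± 0.11), where 6.90% of all genes did. Another 2 rose, Me1, which makes NADPH (1.28 ± 0.11), and Lpin1 (1.05 ± 0.24), where 7.85% of all genes did. Elovl7 in ProT and Me1 in HSC averaged 6.97 and 6.30, below that median, which leaves changes of at least 1.91-fold and 1.32-fold. The rise of Lpin1 missed the threshold without HSC replicate 2 (adjusted p = 0.0985), ProT replicate 2 (0.108) or either DP replicate (0.113), and with the replicate block (0.0591).

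Of 13 LXR partners, targets and oxysterol enzymes, 3 rose and 2 fell in DP against ProT, where 14.5% and 18.1% of all genes did. Without DP replicate 2, 1 rose and 1 fell. Apoe, an LXR target in macrophages, had 10.20 and 10.10 in DP, against 8.77 and 8.63 in ProT (1.45 ± 0.11, adjusted p = 0.000293), and Smpdl3a rose by 1.14 ± 0.19, a call lost without DP replicate 1 (adjusted p = 0.0551) or 2 (0.0559). Lpcat3, an LXR target in liver, changed by -0.47 ± 0.08 and Pltp, which transfers phospholipids, by -0.71 ± 0.11; the call of Lpcat3 was lost without DP replicate 2 (adjusted p = 0.0646). Pltp had first risen in ProT, with 10.00 and 9.75 in ProT, against 6.76 and 6.91 in HSC (measured difference 3.04 ± 0.11, adjusted p = 3.51e-05), at least 6.53-fold since its HSC signals were below the median of all gene values. Cyp27a1, the other gene that rose in DP against ProT (0.45 ± 0.08), averaged 5.92 in ProT and 6.37 in DP, levels not shown to be above background. Ch25h and Cyp7b1, enzymes that make and clear oxysterols, had means between 4.73 and 4.97 in every population, below the median of all gene values. Cyp39a1, another oxysterol hydroxylase, averaged 5.57 in ProT, also below it, and 9.41 in HSC, a fall of at least 4.73-fold.

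Of 15 fatty acid oxidation genes, 6 fell and 1 rose in DP against ProT, where 18.1% and 14.5% of all genes did. Their median log2 change was -0.36, and the number that fell changed with the array left out. The fall of Hadh (-0.36 ± 0.08) missed the threshold with quantile normalization (adjusted p = 0.0862), median centring (0.0584) and cyclic loess (0.0957). Acadl, a dehydrogenase of long-chain acyl-CoA, changed by -1.51 ± 0.16, Cpt1a, which admits fatty acids to mitochondria, by -1.40 ± 0.09, and Eci1 by -1.31 ± 0.10. Acaa2, a thiolase, rose by 0.90 ± 0.07, and Hadhb and Hadha did not pass (0.16 ± 0.10 and 0.19 ± 0.07). Hadha did pass as higher with quantile normalization (0.24, adjusted p = 0.0389), median centring (0.30, 0.0291) and cyclic loess (0.30, 0.0202). In ProT against HSC limma called none of the 15, where 7.85% of all genes rose and 6.90% fell. At an unadjusted p below 0.05, 1 was higher and 1 lower. Without HSC replicate 1, 4 rose (Acadl, Acadvl, Acads and Decr1).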

How the data were processed

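Total RNA of 6 samples, 2 each of HSC, ProT and DP, was labelled with biotin and hybridized to Affymetrix arrays, per the labels' protocols. The authors deposited 1 table of log2 signals for 35556 probe sets, made with RMA and Partek per the submitters' processing notes (their versions and settings: not given in the sources used here). Values lay between 3.22 and 14.38; the number of arrays limits the precision. GEO's platform annotation linked 21789 probe sets to 1 gene each (19938 genes), 1621 to several and 12146 to none listed, and the last 2 kinds were left out. No filter on signal was used.

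All 6 arrays were fitted with a mean per population in limma 3.58.1 (R 4.3.3, eBayes, residual degrees of freedom 3, prior 2.83). Calls are those with p below 0.05 after Benjamini-Hochberg adjustment across all genes, and errors of changes are moderated standard errors. Promoter letters were searched, in the 250 bases before each start, with Python 3.11.15. The fit was tested on simulated data. Members, lists and genes shown were chosen with earlier results of these data known. All measured members are accounted for, those called with a log2 change of at least 1 with every array's value; from each pathway list up to 3 called genes per comparison, by size, and up to 2 that did not pass may be named. Other genes of the lists named beside them, and the sequences shown, were chosen after their values were seen. Replicate numbers did not pair the samples and were not used. Alternatives were quantile normalization, centring on array medians, cyclic loess, a replicate block, the mean or most variable probe set, a prior that was trended and robust, a filter keeping genes that reach 7.17 in at least 2 arrays, fits without the population not compared, adjusted p below 0.01 and leaving out each array.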

Additional observations from a re-analysis of the deposited data

How the results depend on the processing

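Of 77 called member changes over the 3 comparisons, 61 kept their call and direction under all alternatives run, 16 lost the call under at least 1, and none changed direction. With DP involved, counts moved little: outside the stricter threshold and left-out arrays, 27 to 29 members fell in DP against ProT and 27 in DP against HSC, with 5 and 6 higher. In ProT against HSC, 5 members rose when only these populations were fitted and 5 at an adjusted p below 0.01, where 3 rose in DP against ProT. Over all genes 1013 and 891 rose in ProT against HSC under these settings, against 1565 in the main fit. At the stricter threshold 1645 of all genes rose in DP against ProT, against 2899. Leaving out each array gave 5 to 12 higher and 0 to 2 lower members in ProT against HSC, 3 to 5 higher and 25 to 29 lower in DP against ProT, and 5 to 6 and 23 to 27 in DP against HSC. In those refits a population with 1 array is assumed to vary like the others. With the replicate block the counts were 11 higher in ProT against HSC, 5 higher and 28 lower in DP against ProT, and 6 and 27 in DP against HSC, and the deviations of same-numbered arrays correlated at -0.043 to 0.058. Changes of sign were seen in members that did not pass. Leaving out each array in ProT against HSC, changes lay between -0.16 and 0.60 for Pmvk, -0.70 and 0.14 for Idi1, -0.01 and 0.09 for Fdps, -0.24 and 0.14 for Sqle, -0.04 and 0.09 for Nsdhl, -0.20 and 0.12 for Sc5d, -0.06 and 0.23 for Dhcr7, -0.47 and 0.05 for Insig1, -0.29 and 0.16 for Stard4, and 0.00 and 0.42 for Acly. In DP against HSC they lay between -0.14 and 0.08 for Srebf1 and between -0.04 and 0.15 for Scap. The scalings turned Fdps (-0.04), Nsdhl (-0.06) and Nr1h3 (-0.01) with median centring and Sc5d (0.00) with quantile normalization in ProT against HSC. In DP against HSC they turned Srebf1, to 0.09 with quantile normalization, 0.01 with median centring and 0.07 with cyclic loess. The cause was not tested. Signals near 7.17 were not shown to lie above background, which limits Nr1h3, Abca1 in HSC and Scd1, Cyp51 and Pmvk in DP.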

Other observations

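Idi1, Fdft1 and Acaca have a further probe set linked to the same gene. That of Idi1 had 11.28 and 12.11 in HSC, 11.31 and 11.57 in ProT and 8.55 and 8.53 in DP. That of Fdft1 had 12.00 and 11.95 in HSC, 12.15 and 12.31 in ProT and 10.46 and 10.21 in DP. That of Acaca had 9.66 and 9.64 in HSC, 9.64 and 9.72 in ProT and 8.03 and 7.79 in DP. In each of these genes both probe sets were lowest on the DP arrays. A probe set shared by Srebf2 and other genes had 9.70 and 9.20 in HSC, 8.82 and 9.62 in ProT and 9.99 and 9.87 in DP, and was not used for Srebf2.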
